A study of Bos taurus with 2 samples.

Results

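The genes described here encode the proteasome, its activators, its inhibitor and its assembly chaperones. They were taken from a bovine array by gene symbol, as every non-control probe whose name was PSMA to PSMG followed by a digit. The rule found 48 genes of the 15715 named genes on the array, measured by 103 of its 43652 probes. Of these genes, 35 encode subunits of the core or the cap, 5 encode activators and an inhibitor, and 7 encode assembly chaperones. The remaining match was PSMC3IP, a meiotic recombination factor named after its binding to PSMC3, which is not a proteasome subunit. PSMA8, the testis form of an alpha subunit, was not among the array's names.

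The study set RNA of whey exosomes, pelleted from Holstein raw milk at 10000 g for 90 min and washed 2 times, against RNA of the whey supernatant left above that pellet. Purified RNA of 3 milk samples was pooled in equal parts, 100 ng was labelled with Cy3, and each fraction was hybridised to 1 array. There is therefore no replicate, no test is possible between the fractions, and every difference is one between these arrays. The pellet is called exosome only as the labels call it, and a lower level per particle cannot be told apart from fewer particles in either pool.

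The proteasome is the main protease of the cytosol and nucleus for proteins tagged with ubiquitin. Its barrel-shaped core has outer rings of alpha subunits, which gate the entry, and inner rings of beta subunits, some of which carry the proteolytic sites. A cap made of a base and a lid recognises, unfolds and deubiquitinates substrates, and alternative activators can bind in its place. In immune cells and in cells exposed to interferon, exchangeable beta subunits form the immunoproteasome, which alters the peptides available for presentation to T cells. Lactating mammary epithelium produces and quality-controls large amounts of secreted protein.

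Processed signal is the scanner software's background-subtracted brightness of a probe, on an arbitrary linear scale. A gene counts as detected where any of its probes was called well above background by that software. The lowest signal so called was 11.3 for exosome and 8.75 for supernatant. Signals of different probes do not rank the amounts of their transcripts, so the values below compare the arrays probe by probe. The exosome array was the brighter one for most genes, with 25524 probes detected against 5732 on the supernatant array. Among the 3377 genes with a probe detected in both fractions, the median was 3.51 higher in exosome on the unscaled log2 scale, which is 11.4-fold. Differences are therefore given unscaled and also relative to that median gene, a value that no constant scaling moves. Scaling each array to the 75th percentile of the probes detected on both put the median gene at -1.95 (log2, exosome minus supernatant).

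The labelled tissue was checked with marker genes. All 8 markers of mammary secretory epithelium were detected in exosome and 7 of them in supernatant, with summed signals of 3088517 in exosome and 27619 in supernatant. The 7 were CSN2, CSN3, LALBA, PAEP, XDH, ELF5 and KRT8, and they lay above the median gene by 1.67 for KRT8 to 9.99 for XDH (log2). Of 8 leukocyte markers, 4 were detected in exosome and 3 in supernatant, with summed signals of 1852 in exosome and 824 in supernatant. Over all named genes, 69.4% were detected in exosome and 22.9% in supernatant. CD3E, CSF3R, CXCR2 and ITGAM, markers of T cells, neutrophils and myeloid cells, were not well above background on either array.

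Nearly the whole gene set was seen in exosome, and little of it in supernatant. On the exosome array 47 of the 48 genes (97.9%) were detected, where 69.4% of all named genes were. On the supernatant array 7 of the 48 (14.6%) were detected, where 22.9% of all named genes were. Detection on the exosome array alone held for 40 genes (83.3%), against 47.5% of all named genes. Among genes detected in exosome, 14.9% of the proteasome genes were also detected in supernatant, against 31.6% of all named genes. The low supernatant share depends on the stringency of the detection call. With the software's weaker flag, which asks only for a signal significantly above background, 36 of the 48 genes (75%) had a signal in supernatant and 66.5% of all named genes did. In exosome 47 of the 48 genes had that flag, against 84.4% of all named genes.

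**Figure D1:**
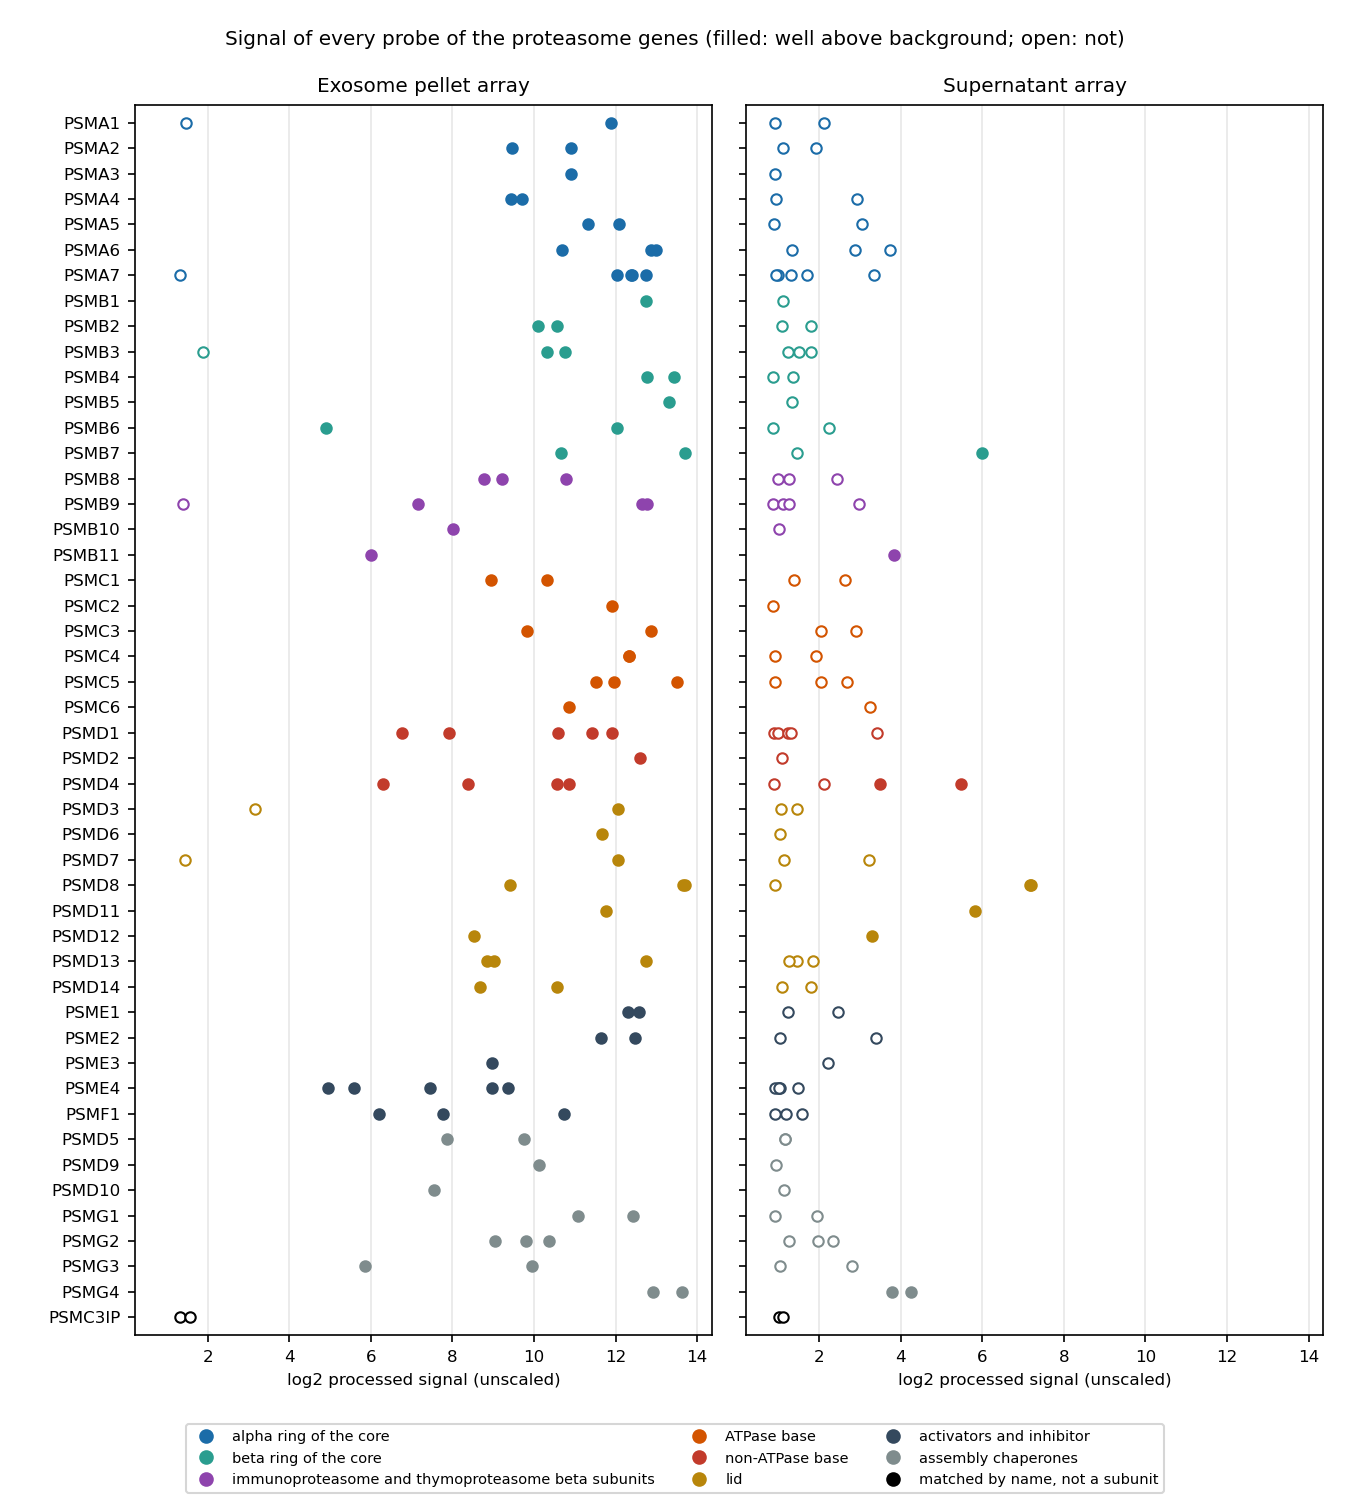
Log2 processed signal (unscaled, x axis) of every probe of the proteasome genes in exosome and in supernatant, 1 row per gene, filled where well above background and open where not. Detected exosome signals run from 29.6 to 13416, while the supernatant points are mostly open and lie between 1.82 and 13.3, with 10 filled points from 9.87 to 147.

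The plot of signals by gene shows the same contrast probe by probe. Of the 103 probes, 95 (92.2%) were detected in exosome, with a median signal of 1732, and 10 (9.71%) were detected in supernatant. Over all probes of the array these shares were 58.5% in exosome and 13.1% in supernatant. The 93 probes not detected in supernatant had a median signal of 2.39 there. PSMC3IP was the gene detected on neither array, with signals of 2.49 and 2.96 in exosome and of 2.02 and 2.16 in supernatant. Thus each of the 47 proteasome genes of the set had a detected probe in exosome.

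Of the 8 probes not detected in exosome, 2 were those of PSMC3IP, 5 were designed on expressed sequence tags and 1 was a RefSeq probe of PSMD3. Those 5 tag probes belong to PSMA1, PSMA7, PSMB3, PSMB9 and PSMD7, and they read between 2.50 and 3.70 in exosome while other probes of the same genes read at least 144. The PSMD3 probe at base 683 of the transcript read 8.87 in exosome and 2.09 in supernatant, whereas its probe at base 2029 read 4257 in exosome and 2.74 in supernatant. Whether the tag probes lie on the transcribed strand was not tested.

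The 7 genes detected on both arrays were PSMB7, PSMB11, PSMD4, PSMD8, PSMD11, PSMD12 and PSMG4, and each had at least 1 probe with the call in both fractions. They come from the beta ring, the exchangeable beta subunits, the base, the lid and the assembly chaperones. By this call none is an alpha subunit, an ATPase or an activator. With the weaker flag, 6 of the 7 alpha genes and 5 of the 6 ATPases had a signal in supernatant. So did all 5 activator and inhibitor genes, where 66.5% of all named genes did. A PSMA6 probe at 13.3 in supernatant lacked the stricter call, while the PSMD12 probe at 9.87 had it. Before scaling all 7 genes detected on both arrays were brighter in exosome, as were 93.4% of the 3377 measured genes. Relative to the median gene, 6 of the 7 were at least 2-fold higher in exosome, where 37.3% of all measured genes were, and 1 was at least 2-fold lower, where 36.6% were. Their median was 2.71 above the median gene (log2), and quartiles over all measured genes were -1.84 and 2.16.

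Stretches of the 60-base probes that gave these measurements show what was read on both arrays. Each is a part of at most 30 bases, 5′ to 3′, copied from the array file. Capitals mark AATAAA, the canonical polyadenylation signal, searched as these letters in the probe strand. Where it is absent the first bases are shown.
PSMB7, base 888: cttgctgaatgaacccAATAAAaaatgaaa
PSMD8, bases 1117 and 1122: ccccccacccccAATAAAgatggattgaca
PSMD4, base 1218: tctgtaaccactgcgccctaAATAAAgctt
PSMD4, base 1230: cactgcgccttaAATAAAgcttggcaactt
PSMG4, base 378: ggagactcgggcacgggacgcttgAATAAA
PSMG4, base 427: gcttgAATAAAcggccagatccgctgctgc
PSMD11, base 1428: tttggtgcatctgtattccagccgataggt
PSMD12, base 1382: ctcatagccaaagaggagatgatacataat
PSMB11, base 1088: caagtttctacccctttctcttccccaagc

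The hexamer was in 7 of the 10 probes detected on both arrays (70.0%), and these 7 come from 4 genes, with 1 probe of PSMB7 and a pair on the same site for each of PSMD4, PSMD8 and PSMG4. It was in 10 of the 93 probes not detected in supernatant (10.8%). Over the whole array it was in 9.35% of probes, in 16.8% of probes detected on both arrays and in 9.85% of those detected in exosome alone. The PSMD8 probes overlap by 55 bases with 1 mismatch, the PSMD4 probes by 48 bases with 1 mismatch, and the PSMG4 probes by 11 identical bases. Median GC content was 45% in the 10 probes and 43.3% in the 93 others. The match is a description of the probe letters, and no test was made of it.

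PSMG4 had the largest difference of the 7. It encodes a small chaperone that pairs with PSMG3 when the alpha ring is built. Its probe at chr23:51421529-51421588 (build Btau_3.1, coordinates descending) read 12700 ± 1270 in exosome and 19.0 ± 2.95 in supernatant, where ± is the scanner software's error of the signal and does not cover spread between samples. Its other probe, at chr23:51421480-51421539, read 7784 ± 778 in exosome and 13.9 ± 2.50 in supernatant. The probes gave 668-fold and 562-fold higher exosome signals, so the gene stood 9.26 higher in exosome unscaled and 5.75 higher relative to the median gene (log2). At a detection limit 4 times the lowest detected signal, PSMG4 was no longer detected in supernatant.

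PSMB7 encodes the core subunit with trypsin-like activity. Its probe at chr11:98624298-98624357 (descending) read 13335 ± 1334 in exosome and 64.0 ± 6.74 in supernatant, a 208-fold difference that lay 4.20 (log2) above the median gene. Its upstream probe, at base 464, read 1628 in exosome and 2.74 in supernatant, where it was not well above background. The call of PSMB7 in supernatant therefore rests on 1 of its probes.

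PSMD8, PSMD11 and PSMD12 encode lid subunits that help to hold the cap together. The PSMD8 probe at chr18:47656990-47657049 (ascending) read 13416 ± 1342 in exosome and 144 ± 14.5 in supernatant. Its near-identical neighbour at chr18:47656995-47657054 read 12885 ± 1289 in exosome and 147 ± 14.8 in supernatant. These were the highest supernatant signals of any proteasome probe, and the gene was 90.5-fold higher in exosome unscaled and 2.99 (log2) above the median gene. The remaining PSMD8 probe at base 547 read 682 in exosome and 1.90 in supernatant, not well above background.

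PSMD11 read 3490 ± 349 in exosome and 56.9 ± 6.13 in supernatant at chr19:17484568-17484627 (descending), 61.3-fold higher and 2.43 (log2) above the median gene. PSMD12 read 366 ± 36.7 in exosome and 9.87 ± 2.07 in supernatant at chr19:51074350-51074409 (ascending), 37.1-fold higher and 1.71 (log2) above the median gene. With normexp background correction PSMD12 was 0.61 above the median gene, which ends its 2-fold call and leaves 5 of the 7 genes past that size. The PSMD12 supernatant signal was the faintest of the 10 and lay just over the lowest detected signal of that array.

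PSMD4 encodes a ubiquitin receptor of the cap, counted here with the base. Its overlapping probes disagreed in size. The probe at chr3:21068850-21068909 (descending) read 1511 ± 151 in exosome and 44.8 ± 5.24 in supernatant, and that at chr3:21068838-21068897 read 1838 ± 184 in exosome and 11.2 ± 2.20 in supernatant. They gave 33.7-fold and 164-fold higher exosome signals, and the gene averaged 2.71 (log2) above the median gene. Its probes at bases 472 and 971 read 78.1 and 335 in exosome and were not well above background in supernatant, at 1.86 and 4.38.

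PSMB11 encodes the beta subunit of the thymoproteasome, known from mouse and human as a form of cortical thymic epithelium. Of the 7, it alone lay below the median gene. Its probe at chr10:22106157-22106216 (descending) read 63.7 ± 6.96 in exosome and 14.4 ± 2.69 in supernatant, 4.42-fold higher in exosome unscaled and -1.36 (log2) relative to the median gene. Under quantile normalization PSMB11 stood at -0.64 (log2) relative to the median gene, which ends its 2-fold call. At a detection limit 4 times the lowest detected signal, it was no longer detected in supernatant. Its probe lies 10.9 kb from that of PSMB5, whose product it replaces. PSMB5 read 10123 in exosome and 2.52 in supernatant, where it was not well above background and the exosome signal was at least 1156-fold higher unscaled.

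**Figure D2:**
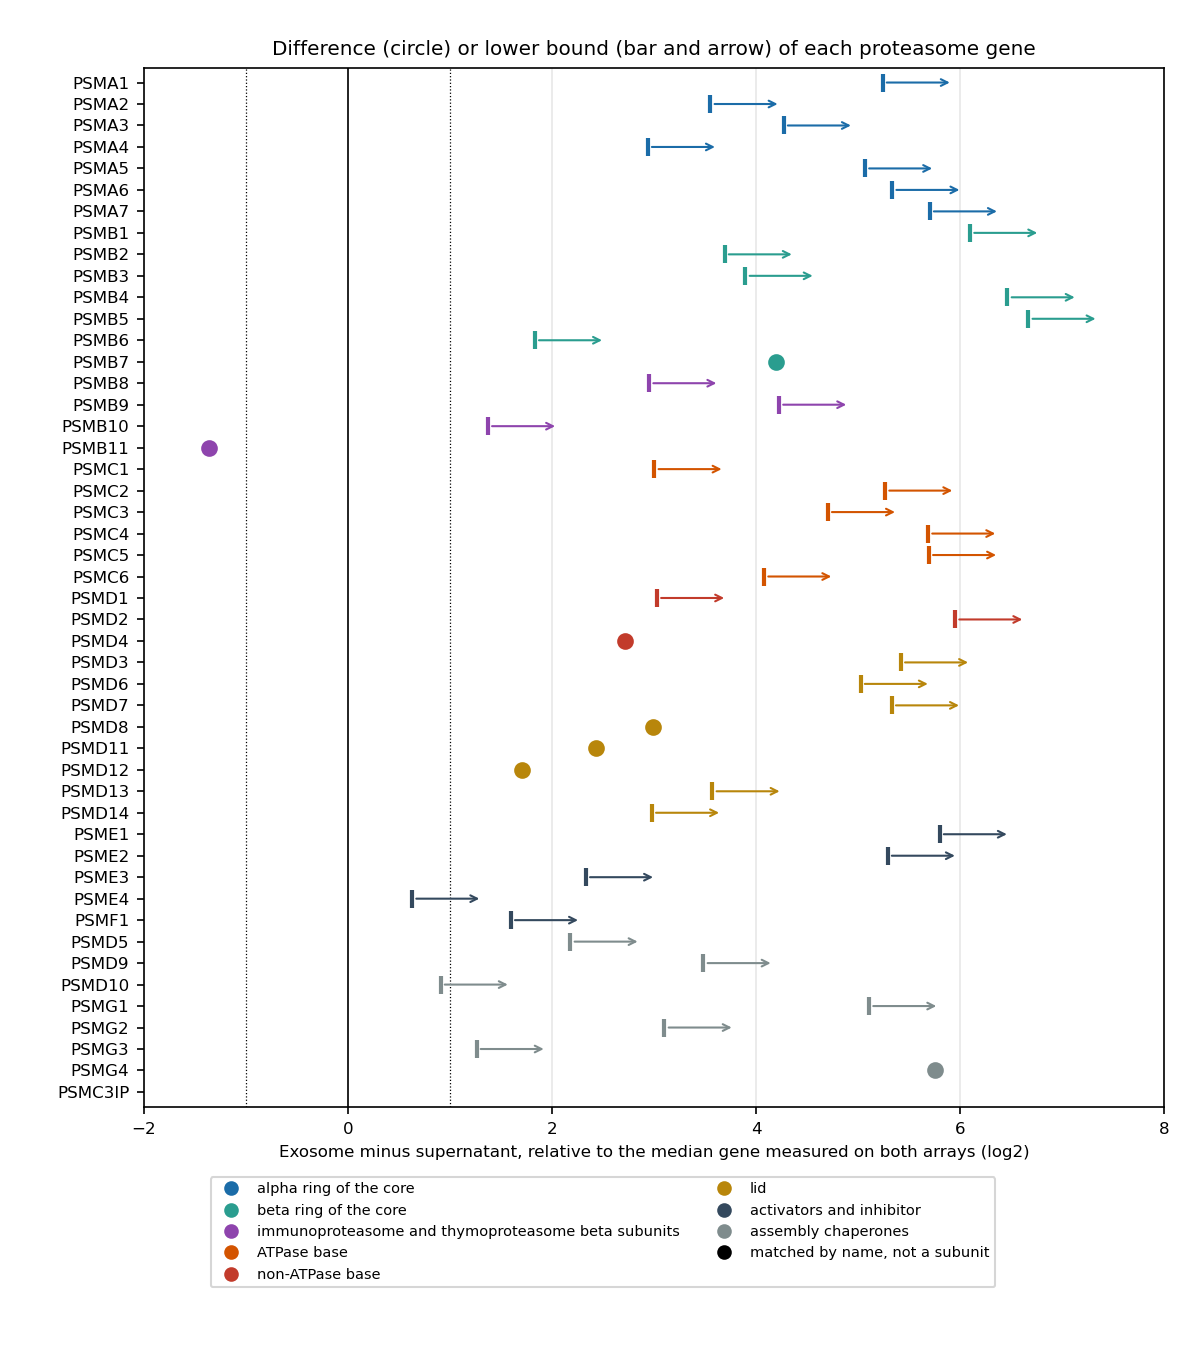
Exosome minus supernatant for each proteasome gene, set against the median gene (log2, x axis), as a circle where the gene was measured on both arrays and as a bar with an arrow, a lower bound, where it was detected in exosome alone. PSMG4 is the highest circle at 5.75 and PSMB11 the lowest at -1.36, and the bounds run from 0.63 for PSME4 to 6.67 for PSMB5.

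The other 40 genes have only a lower bound, set by the dimness of the supernatant array. For each probe detected in exosome, its signal there was divided by its supernatant signal or by 8.75, whichever was higher, and the log2 ratios were averaged per gene. Its median over the 40 was 4.15 (log2) relative to the median gene, where the median bound of all 7466 genes detected in exosome alone was 0.34. In 38 of the 40 it was at least 2-fold above the median gene, where 39.1% of all such genes were. PSME4 and PSMD10 were under that size. Genes enter this comparison by lacking a supernatant call, whereas the median gene comes from genes detected on both arrays. The supernatant floor is shared, so these bounds and counts mostly restate exosome brightness and are no measure of enrichment in the pellet. After scaling, 34 bounds exceeded 1-fold, and PSMB6, PSMB10, PSMD10, PSME4, PSMF1 and PSMG3 kept no bound in favour of exosome.

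All 7 alpha genes were detected in exosome, where 69.4% of all named genes were. None was detected in supernatant, where 31.6% of all exosome-detected genes were. With the weaker flag 6 of them had a signal there, where 66.5% of all named genes did. Their bounds lay between 2.94 for PSMA4 and 5.70 for PSMA7 (log2, relative to the median gene). The 4 transcript probes of PSMA7 read 4224, 5415, 6859 and 5298 in exosome and 2.0, 10.1, 3.27 and 2.50 in supernatant, so the gene was at least 591-fold brighter in exosome unscaled and at least 13.5-fold after scaling. PSMA4 read 697 and 833 in exosome and 7.58 and 1.92 in supernatant, at least 87.0-fold unscaled and at least 1.98-fold after scaling. PSMA6, at 1633, 7424 and 8080 in exosome, gave 13.3 in supernatant with its last probe, the brightest supernatant signal of the set without the detection call.

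The beta ring had 7 genes detected in exosome, where 69.4% of all named genes were. In supernatant 1, PSMB7, was detected, where 31.6% of all exosome-detected genes were. With the weaker flag 4 beta genes had a signal there, where 66.5% of all named genes did. The other 6 genes, without PSMB7, had bounds from 1.83 for PSMB6 to 6.67 for PSMB5 (log2, relative to the median gene). PSMB5, which carries the chymotrypsin-like activity, was at least 1156-fold brighter in exosome unscaled and at least 26.4-fold after scaling. PSMB4, a structural beta subunit, read 7028 and 10977 in exosome and 2.56 and 1.83 in supernatant, at least 1003-fold unscaled and at least 22.9-fold after scaling. PSMB6, with the caspase-like activity, read 4222 in exosome and 4.76 in supernatant with its transcript probe but 29.6 in exosome and 1.82 in supernatant with a tag probe, whose coordinates run in the opposite direction. With transcript probes alone, an alternative added after seeing the data, PSMB6 was at least 482-fold brighter in exosome unscaled and at least 11-fold after scaling.

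Within the set, supernatant detection is listed here by exosome brightness, as a description only. Of the 7 probes that read over 10000 in exosome, 4 were detected in supernatant, 1 for PSMB7, 2 for PSMD8 and 1 for PSMG4. Of the other 96 probes, which include the 8 not detected in exosome, 6 were. The PSMD8 probes overlap by 55 bases, so they read 1 site. The share over all array probes of that brightness was not computed, so these counts cannot be read as particular to proteasome probes. The other 3 probes over 10000 belonged to PSMB4, PSMB5 and PSMC5 and read 1.83, 2.52 and 6.46 in supernatant. PSMD12 and PSMB11, at 366 and 63.7 in exosome, were detected in supernatant while these were not.

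The immunoproteasome subunits were all detected in exosome, where 69.4% of all named genes were. PSMB8, which replaces PSMB5, read 440, 589 and 1756 in exosome and 5.45, 1.98 and 2.41 in supernatant, at least 87.9-fold brighter unscaled and at least 2.0-fold after scaling. PSMB9, which replaces PSMB6, read 144, 6952 and 6440 in exosome and 1.83, 7.89 and 2.42 in supernatant with its transcript probes, at least 212-fold unscaled and at least 4.84-fold after scaling. PSMB10, which replaces PSMB7, read 257 in exosome and 2.01 in supernatant. None of these genes was detected in supernatant, unlike PSMB7 and PSMB11, where 31.6% of all exosome-detected genes were.

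Leukocyte markers, 4 of 8, were detected in the same exosome RNA, where 69.4% of all named genes were. PTPRC, the pan-leukocyte antigen CD45, read at most 493 in exosome and 685 in supernatant. Over its probes measured on both arrays it was 1.25 higher in exosome unscaled and at -2.26 relative to the median gene (log2). CD14 lay at -2.43 and CD68 at -1.20, while CD74, the invariant chain of antigen presentation, was detected in exosome alone. The part of leukocyte RNA in the immunoproteasome signals was not tested. PSMB8 and PSMB9 probes lie 16.7 kb apart on chromosome 23.

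The 6 ATPases of the base, which unfold substrates and open the core, were all detected in exosome, where 69.4% of all named genes were. None was detected in supernatant, where 31.6% of all exosome-detected genes were. With the weaker flag 5 of them had a signal there, where 66.5% of all named genes did. Their bounds ran from 3.00 for PSMC1 to 5.69 for PSMC5 (log2, relative to the median gene). PSMC5 read 2946, 3983 and 11633 in exosome and 1.89, 4.11 and 6.46 in supernatant. PSMC1 read 1283 and 496 in exosome and 6.22 and 2.63 in supernatant. The base scaffolds PSMD1 and PSMD2 were likewise detected in exosome alone, with bounds of 3.03 and 5.95.

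All 8 lid genes were detected in exosome and 3 of them in supernatant, a share near the 31.6% of all exosome-detected genes. Its other 5 genes had bounds from 2.98 for PSMD14, the deubiquitinase of the lid, to 5.42 for PSMD3. PSMD14 read 406 and 1513 in exosome and 3.46 and 2.12 in supernatant. PSMD7, the structural partner of PSMD14, read 4255 in exosome and 9.31 in supernatant. That supernatant signal was above the lowest detected one of the array yet did not have the detection call.

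The activators and the inhibitor were all detected in exosome alone, as were 47.5% of all named genes. With the weaker flag all 5 had a signal in supernatant, where 66.5% of all named genes did. Their bounds do not rank the differences behind them. PSME1 and PSME2, which together form the interferon-inducible activator ring, had bounds of 5.80 and 5.29 (log2, relative to the median gene). PSME1 read 5019 and 6113 in exosome and 2.38 and 5.52 in supernatant, and PSME2 read 3211 and 5711 in exosome and 2.07 and 10.6 in supernatant. Their probes lie 5.03 kb apart on chromosome 10. PSME3, the nuclear activator, read 500.4 in exosome and 4.67 in supernatant, with a bound of 2.33.

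PSME4, a large activator known for its part in histone degradation, had the lowest bound of the set. Its 5 probes read 48.2, 31.0, 174, 501 and 658 in exosome from the start to the end of the transcript, and between 1.90 and 2.81 in supernatant. The inhibitor PSMF1 read 216 and 1714 in exosome and 3.00 and 2.28 in supernatant with its transcript probes, and 73.2 in exosome and 1.89 in supernatant with a tag probe. Neither gene kept a bound after scaling over all its probes, and PSMF1 was at least 1.59-fold brighter in exosome with transcript probes alone.

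The assembly chaperones ranged as widely. PSMG1, which pairs with PSMG2 in early alpha ring assembly, read 2152 and 5466 in exosome and 1.90 and 3.88 in supernatant, at least 392-fold unscaled and at least 8.93-fold after scaling. PSMG3, the partner of PSMG4, read 985 in exosome and 7.07 in supernatant with its transcript probe, and 57.5 in exosome and 2.07 in supernatant with a tag probe. With its transcript probe alone it was at least 2.57-fold brighter in exosome after scaling. PSMD5, PSMD9 and PSMD10, chaperones of the base, had bounds of 2.18, 3.48 and 0.91. The PSMD10 probe read 186 in exosome and 2.22 in supernatant.

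By group, the median bound was 5.07 for the alpha ring, 5.00 for the beta ring, 4.98 for the ATPases and 5.03 for the lid (log2, relative to the median gene). It was 2.95 for the exchangeable beta subunits, 2.33 for the activators and inhibitor and 2.64 for the assembly chaperones, and 4.49 for PSMD1 and PSMD2 of the base. The ranges of the groups overlap, and the bounds follow exosome brightness because the supernatant floor is shared. These medians are a description, with no test.

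The position of a probe along its transcript moved with its exosome signal. Among 50 pairs of proteasome probes on 1 transcript at least 200 bases apart, from 20 genes, the probe nearer the 3′ end was brighter in 46 (92.0%), by a median of 2.25 (log2). Over all named genes it was brighter in 76.3% of 17746 pairs, by a median of 2.16. Pairs of 1 gene share probes, so they are not independent, and PSMD1 and PSME4, with 5 probes each, give many of the 50. PSMD1 read 109, 241, 2740, 1550 and 3859 in exosome from base 778 to base 3076. The exceptions came from PSMA2, PSMB3, PSMD1 and PSME4, 1 pair each. The part of probe position in the differences between genes was not tested.

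**Figure D3:**
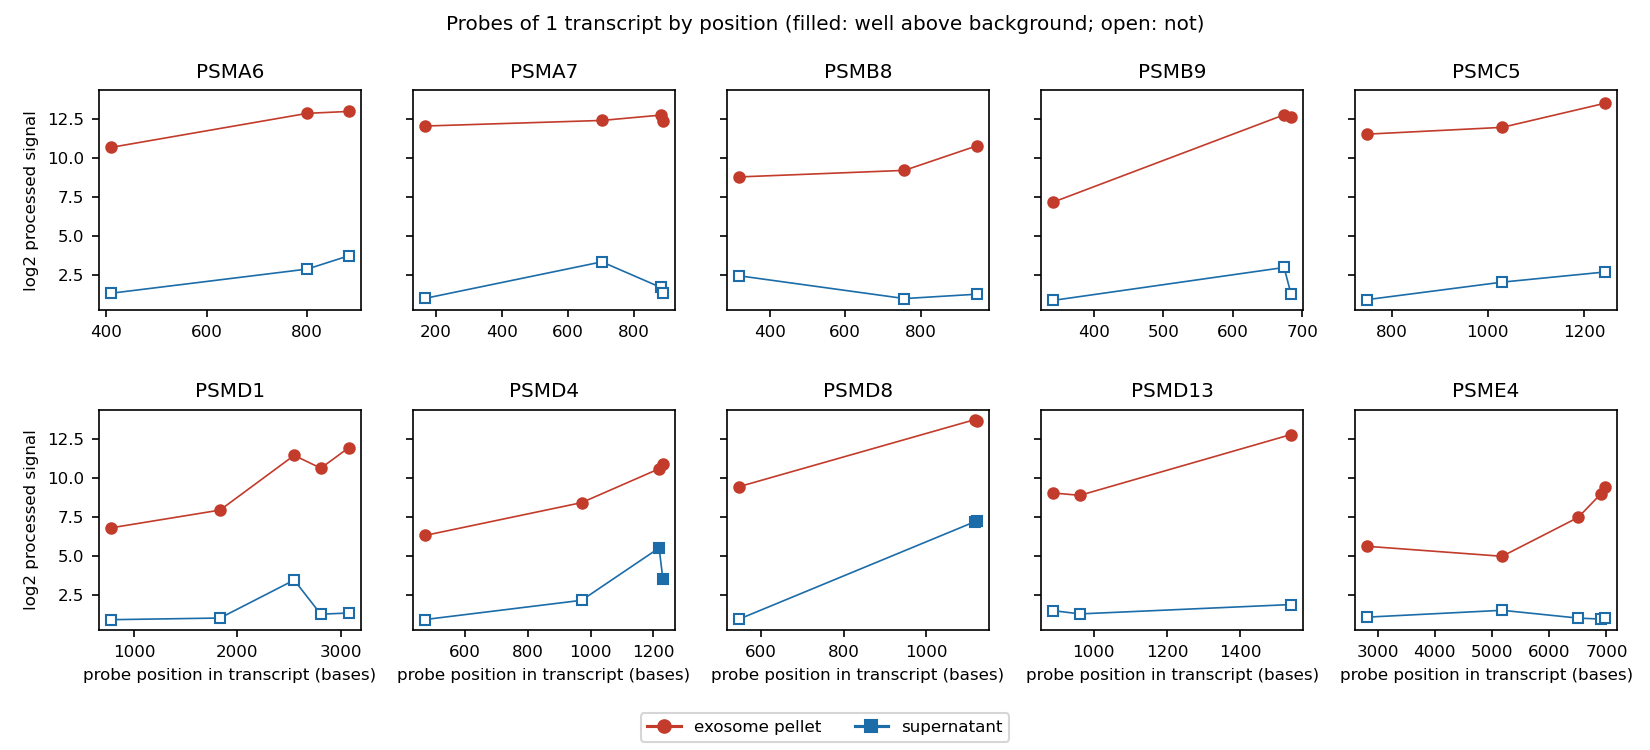
Log2 processed signal (y axis) by probe position in the transcript (bases, x axis) for proteasome genes with several probes on 1 transcript, exosome and supernatant in separate colours, filled where well above background and open where not. Exosome signals climb toward the 3′ end in most genes, as in PSME4 from 48.2 to 658 over its outer probes. Supernatant points are filled only at the last probes of PSMD8 (144 and 147) and PSMD4 (44.8 and 11.2). The open supernatant points read at most 13.3, for the last probe of PSMA6.

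Repeated readings of the same sequence were close in exosome. The identical PSMC4 probes read 5144 and 5096 there, a difference of 0.01 (log2). In supernatant they read 3.80 and 1.90, neither well above background, so exosome minus supernatant was 10.4 for the former and 11.4 for the latter (log2, unscaled). The PSMD5 probe at base 1767, printed on 4 spots, read 868 ± 41.4 in exosome and 2.27 ± 0.235 in supernatant (SD, n = 4 spots of 1 array). For the exosome minus supernatant difference, the spot SD was 0.18 (log2) over the 9 probes on 4 spots and detected on both arrays. The probe SD of that difference among different probes of 1 gene was 1.74, over 533 genes. The choice of probe thus moved a gene's value more than the printing of the spot did.

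The scaling between arrays decides the sign of several genes. After the main scaling, 5 of the 7 genes were higher in exosome, where 26.9% of measured genes were. PSMG4 stood at 3.80, PSMB7 at 2.25, PSMD8 at 1.04, PSMD4 at 0.76, PSMD11 at 0.48, PSMD12 at -0.24 and PSMB11 at -3.31 (log2). With quantile normalization PSMG4 and PSMB7 alone were higher in exosome, at 2.62 and 1.03. Their rank order relative to other genes was not moved by a constant scaling.

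**Figure D4:**
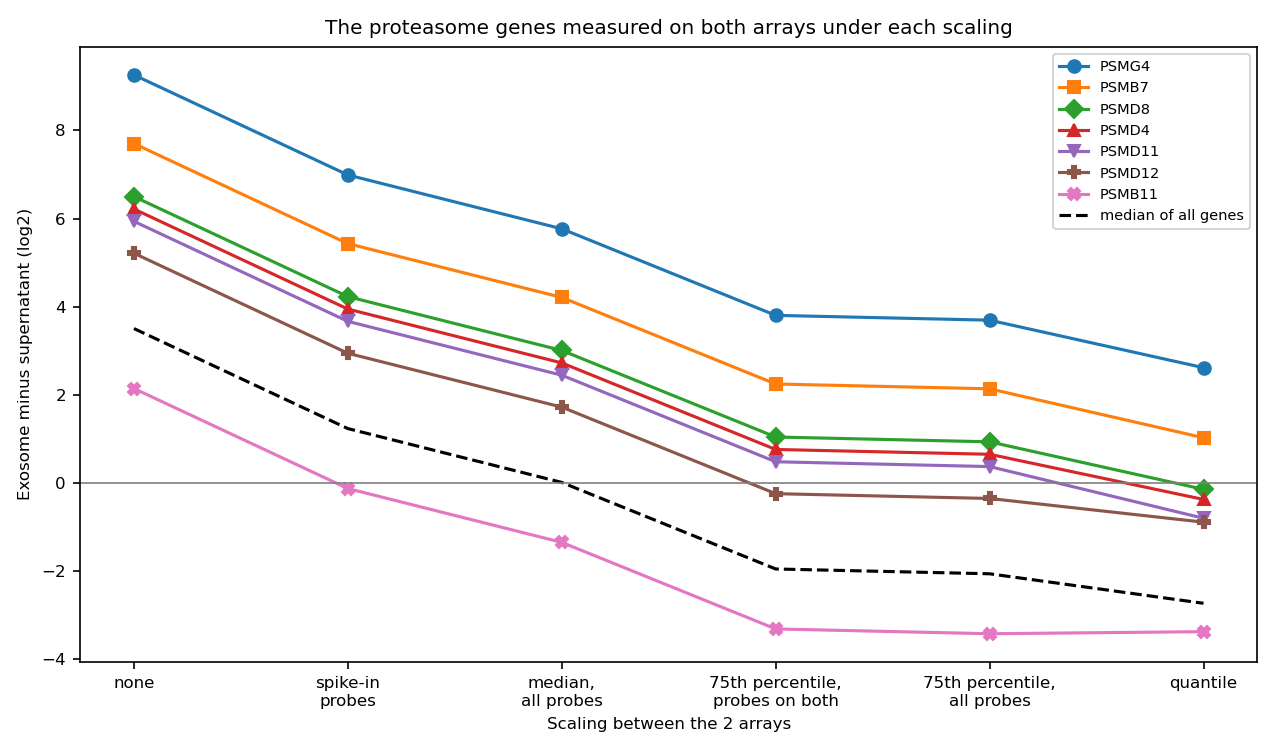
Exosome minus supernatant (log2, y axis) of the 7 proteasome genes measured on both arrays under each scaling between the arrays (x axis), 1 line per gene. All 7 lie above 0 unscaled, 5 after the main scaling and 2 after quantile normalization, and PSMG4 and PSMB7 stay above 0 under every scaling shown.

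Of the 7 listed proteasome genes on the array without a PSM name, 7 were detected in exosome and 2 in supernatant. ADRM1, a ubiquitin receptor of the cap, lay 4.09 (log2) above the median gene with 1 of its 4 probes, and the lid gene SEM1, listed under its older name SHFM1, lay 4.17 above it at 2467 in exosome and 12.1 in supernatant. A further probe, described as the human counterpart of SEM1 and carrying no gene symbol, read 3.64 in exosome and 2.86 in supernatant and was detected on neither array. POMP, the maturation factor of the core, read 9274 in exosome and 9.33 in supernatant, at least 994-fold unscaled. Of 12 genes listed for ubiquitin activation (UBA1 and UBA6) or delivery of ubiquitinated proteins, 12 were detected in exosome and 4 in supernatant. Over all named genes, 69.4% were detected in exosome. Both supernatant counts lie near the 31.6% of exosome-detected genes that were also detected in supernatant. Those 4 lay above the median gene, VCP by 5.44, UBA1 by 4.49, NSFL1C by 3.81 and RAD23B by 1.04 (log2).

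Of 6 regulators of proteasome genes on the array, 5 were detected in exosome and 1 in supernatant. Over all named genes these shares were 69.4% and 22.9%. NFE2L1, the factor that raises proteasome transcription when activity is short, lay at -0.54 (log2) relative to the median gene. NFE2L3 was detected on neither array. IRF1, which drives interferon-induced genes, was detected in exosome alone, with a highest signal of 281.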

How the data were processed

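RNA of the exosome pellet and of the supernatant was measured on 1 Agilent 1-colour array each, on the same slide and scan. The authors deposited intensity values from the scanner software (Agilent Feature Extraction, version 10.7.3.1), which were corrected for background and for spatial trends inside each array, with no scaling between the arrays, per the file headers. For 53 proteasome probes on the supernatant array and 7 on the exosome array that software had put a surrogate for a signal near background, so values near the floor have no order. Probe coordinates are in HGSC Btau_3.1, per the file headers. The authors' deposited table of log2 values equals the log2 of these signals within 0.001 for 43603 probes with a single spot, and is neither scaled nor centred.

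Control spots and outlier spots (5 exosome, 2 supernatant) were dropped, and repeated spots gave 1 mean per probe. No spot was saturated. Signals were put on a log2 scale and each array was scaled to its 75th percentile over the probes well above background on both arrays, since 13.1% of probes were detected on the supernatant array and the percentile over all probes there (5.24) lay below the lowest detected signal. Differences were averaged per gene, using the probes with a detection call in both fractions. The number of arrays limits the precision, and no p-value was computed. Scripts (Python 3.11.15, pandas 2.3.3, limma 3.58.1 for normexp) were tested on simulated data.

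Genes named are every member detected in supernatant or not in exosome, the catalytic subunits and their counterparts, activators and inhibitor, the extremes of each group and members whose probes disagree. Of the other lists, every gene detected on both arrays or on neither is named. IRF1, POMP, CD74 and a few further members given as examples were chosen after their values were seen. The members and lists were chosen with earlier results of these data known. Gene symbols were kept as the array's files give them. Whether a probe lies in an exon or an untranslated region was not analysed here. Alternatives covered scaling, background correction, detection stringency, probe choice and filtering.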

Additional observations from a re-analysis of the deposited data

How the results depend on the processing

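No value was labelled reversed among 81 recomputed under 15 alternatives, and 62 stayed within the tolerance. That label could apply to the medians only, since counts could only stay or move. A constant scaling, or the authors' table, leaves values relative to the median gene unchanged, so part of the 62 was fixed in advance. Single genes did change sign after scaling. Under quantile normalization PSMD8 stood at -0.14, PSMD4 at -0.37 and PSMD11 at -0.80 (log2). With quantile normalization the median of the measured members was 2.36 relative to the median gene, 0 lay at least 2-fold below it, 2 were brighter in exosome after scaling, and the median bound was 3.95. With the weaker detection flag, 36 members were detected in supernatant. The median of the 35 that could be measured was 4.59, with 32 at least 2-fold above, 2 below and 31 brighter in exosome, and the median bound was 7.22. At a detection limit 4 times the lowest detected signal, 4 members were detected in supernatant, 0 lay below, 3 were brighter in exosome and the bound was 2.35. Without a filter, the median over 48 genes was 5.17, with 46 above and 43 brighter in exosome. With the brightest probe per gene the bound was 5.00. Where every probe of a gene had to be detected, 4 members were detected in supernatant. The cause of these moves was not tested beyond the number of genes each setting admits. No paired analysis was possible because each fraction has 1 array and no test was made. The dimness of the supernatant array limits 40 members to a lower bound.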

Other observations

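Several probes are described in the array's files as proteasome genes but carry no PSM symbol, so the naming rule did not take them. A probe described as the activator subunit that PSME1 encodes read 357 in exosome and 10.5 in supernatant, at least 33.9-fold unscaled. A probe described as the inhibitor encoded by PSMF1 read 542 in exosome and 2.12 in supernatant, at least 62.0-fold unscaled. A probe described as a homolog of ECM29, a proteasome-associated scaffold, read 103 in exosome and 2.47 in supernatant, at least 11.8-fold unscaled. A probe described as PSMB1 read 5.39 in exosome and 2.62 in supernatant and was detected on neither array, whereas the named PSMB1 probe read 6811 in exosome and 2.16 in supernatant. Probes described as resembling PSME3 and PSME1 were also detected on neither array, at 7.02 and 5.72 in exosome and 6.14 and 8.37 in supernatant. PITHD1, whose name comes from a domain that binds the proteasome, was detected on both arrays with 1 probe, at 1193 in exosome and 25.6 in supernatant.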
